A study of Mus musculus with 4 samples.

Results

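Committed oligodendrocyte precursors carrying Gpr17 were described among cells sorted for a TdTomato reporter from juvenile mouse frontal cortex and hippocampus. A cell was a member when it held 200 to 6000 genes, under 30% mitochondrial UMIs (unique molecular identifiers, each counting a captured RNA molecule), at least 2 UMIs of Gpr17, at most 1 of Mog, at most 1 of Gad1 and Gad2 together and 0 of Top2a and Mki67 together. Of 26987 deposited cell barcodes, 26201 passed the gene and mitochondrial limits, and 1624 of these were members. Oligodendrocytes form when Pdgfra-positive precursors leave the cell cycle, pass through a short committed stage and then build myelin. GPR17 is a receptor coupled to inhibitory G proteins that is present during the committed stage and is switched off before myelination. BMP4 is a secreted ligand of the bone morphogenetic protein family, BCAS1 marks oligodendrocytes that begin to make myelin, and FYN is a Src-family kinase that links axon contact to the cytoskeleton of the growing processes.

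All mice carried Nkx2-1-Cre, active in progenitors of the medial ganglionic eminence and neighbouring ventral forebrain, and the Ai14 reporter that makes TdTomato after Cre recombination. The cells described here survived dissociation and a sort for that ventral lineage. A reporter UMI was found in 71.9% of WT and 93.2% of Grin1-null members, and the lineage of each cell was not tested. Wild-type (WT) mice were Nkx2-1-Cre with Grin1 wt/wt, and Grin1-null mice were Nkx2-1-Cre with Grin1 fl/fl, in which the obligate NMDA receptor subunit gene is deleted in the Cre lineage. Animals were of postnatal days 18 to 20, with both sexes used in the study and several animals pooled, and RNA was counted by 10x Genomics 3′ single-cell sequencing. In both genotypes the authors kept the activity blockers tetrodotoxin and APV, and actinomycin-D, in the buffers for recovery, dissociation and sorting. These were added to limit excitotoxicity and stress-related transcription. WT had 3 libraries in each region and Grin1-null had 2, with replicate 1 on the v2 chemistry and replicates 2 and 3 on v3.

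Library totals in replicate order were 9306756, 14212183 and 28057207 UMIs in WT cortex, and 10555408, 8782181 and 20639002 UMIs in WT hippocampus. They were 1488601 and 25688337 UMIs in Grin1-null cortex, and 3856745 and 47338167 UMIs in Grin1-null hippocampus. The members' median depth in the same order was 2257, 2195 and 2282.5 UMIs in WT cortex, 2558, 1552 and 4006 in WT hippocampus, 2317 and 4895 in Grin1-null cortex, and 4248 and 6910.0 in Grin1-null hippocampus. Grin1-null members were thus sampled more deeply than WT members in both regions, with no overlap. In cortex, replicate 1 of Grin1-null stood just above the WT libraries. Replicate 1 of Grin1-null cortex held 5 members and was left out of every gene comparison. No barcode was shared by members of any of the 45 library pairs, against 88 shared among all kept cells, at most 12 in a pair.

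The members' identity was read against the other classes of the same lineage and against interneuron-like cells (Gad1 and Gad2 together at least 5 UMIs), which should lack it. Neighbouring classes had at most 1 Gpr17 UMI and at most 1 Gad1 and Gad2 UMI. They were 309 resting precursors (Pdgfra at least 2 UMIs, Mog and Enpp6 at most 1, not cycling) and 112 cycling precursors (Pdgfra at least 2, Mog at most 1). Next came 1695 newly formed oligodendrocytes (Enpp6 at least 2 UMIs, Pdgfra at most 1, not cycling), with no Mog limit. The last were 5247 mature oligodendrocytes (Mog at least 2 UMIs, Enpp6 and Pdgfra at most 1). Median depths of the classes in this order were 1598, 3097.5, 7079 and 4411 UMIs per cell, against 3390.0 in members and 9265.0 in 9206 interneuron-like cells. Because the classes differ in depth, shares of cells are also given after each cell was thinned at random to 1000 UMIs.

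Gpr17 (ENSMUSG00000052229.5, chr18:31942997-31949636 on the minus strand, GRCm38) chose the members and is described without a test. Members held 2 to 21 Gpr17 UMIs, with a median of 3 and a mean of 4.27. Just inside the limit were 508 cells with 2 UMIs and a median depth of 2573 UMIs, and just outside were 762 cells with 1 UMI and a median depth of 1720.5, so the limit also selects deeper cells. The Mog limit kept 233 cells with 1 UMI and removed 101 with 2, the Gad1 and Gad2 limit kept 102 with 1 and removed 6 with 2, and the Top2a and Mki67 limit removed 19 cells with 1. In all, the Mog limit removed 1003 cells that met the other limits, with a median depth of 9428 UMIs. The Gad1 and Gad2 limit removed 67 such cells and the Top2a and Mki67 limit 71, with median depths of 9245 and 3546 UMIs. After thinning, a Gpr17 UMI was found in 69.6% of 1541 members, 22.1% of resting precursors, 5.09% of newly formed and 2.59% of mature oligodendrocytes, and 0.339% of interneuron-like cells. Pooled levels in counts scaled to a library of 1e6 UMIs (CPM) were 194, 1061, 35.5 and 30.2 in resting precursors, members, newly formed and mature oligodendrocytes.

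The other markers matched the label. Bmp4 (ENSMUSG00000021835.10, chr14:46383520-46390669 on the minus strand) was found in 23.0% of thinned members, 1.16% of resting precursors, 3.59% of newly formed oligodendrocytes and 0.0874% of interneuron-like cells. Bcas1 (ENSMUSG00000013523.9, chr2:170346991-170427845 on the minus strand) was found in 83.3%, 41.1%, 42.5% and 0.787% of the same classes. Fyn (ENSMUSG00000019843.10, chr10:39368855-39565381 on the plus strand) was found in 83.1%, 31.0%, 29.5% and 8.59%. Thinned mature oligodendrocytes held Bmp4, Bcas1 and Fyn in 0.247%, 25.5% and 6.62% of cells. All 3 were thus most frequent in members among these classes. Bmp4 and Bcas1 were least frequent in interneuron-like cells, and Fyn in mature oligodendrocytes. Free RNA was not measured. In pooled levels across resting precursors, members, newly formed and mature oligodendrocytes, Bmp4 stood at 18.1, 291, 27.2 and 1.60 CPM, Bcas1 at 588, 3660.5, 874 and 306 CPM and Fyn at 332, 2882, 525 and 76.9 CPM.

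Members were recovered in every library, and their share of kept cells was higher in hippocampus than in cortex in WT. In WT cortex they made up 2.58%, 1.91% and 3.61% of kept cells in replicates 1 to 3 (95% Wilson intervals 1.85 to 3.61%, 1.52 to 2.39% and 3.07 to 4.24%). In WT hippocampus they made up 11.4%, 3.96% and 16.9% (10.2 to 12.8%, 3.43 to 4.56% and 15.6 to 18.2%). The WT groups did not overlap, but hippocampal replicate 2 was close to the highest cortical library. With at least 4 Gpr17 UMIs they overlapped: hippocampal replicate 2 was at 0.565%, below the cortical values of 0.861%, 0.679% and 1.53%, and the WT difference was 4.14 points (two-sided exact permutation p = 0.4). The means were 10.8 ± 6.49% (SD, n = 3) and 2.70 ± 0.860% (SD, n = 3), a difference of 8.06 points at the limit of 2 Gpr17 UMIs with a two-sided exact permutation p of 0.1, the smallest that 3 against 3 libraries can give. Without hippocampal replicate 3 the difference was 5.001 points (two-sided exact permutation p = 0.1).

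In Grin1-null mice the share of kept cells was 2.82% (1.21 to 6.44%) and 5.59% (4.76 to 6.54%) in cortex, and 5.49% (3.65 to 8.17%) and 5.92% (5.23 to 6.69%) in hippocampus. Here the hippocampal and cortical libraries overlapped. With region labels permuted within genotype over all 10 libraries, the mean hippocampal excess was 4.78 points (two-sided exact permutation p = 0.0333, 120 arrangements, smallest p 0.0167). Hippocampus was higher in 5 of 5 same-numbered pairs (two-sided exact test within pairs p = 0.0625, the smallest possible, chosen after the data were seen). The p did not pass 0.05 after thinning to 1000 UMIs (4.67 points, p = 0.05) or 2000 UMIs (2.49 points, p = 0.267), with at least 4 Gpr17 UMIs (2.27 points, p = 0.2), with a stricter cell filter (4.92 points, p = 0.05) or with any 1 of 6 libraries left out (4.09 to 5.01 points, exact permutation p from 0.0667 to 0.133). The Grin1-null means were 4.21% in cortex and 5.70% in hippocampus, the latter -5.06 points from WT, each with a two-sided exact permutation p of 0.4 against WT where 0.1 is the smallest possible. Without replicate 3 of WT hippocampus the hippocampal difference was -1.9995 points.

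As a share of the 8987 lineage cells no regional difference passed a test. These lineage cells were the members and the neighbouring classes, so the 1003 cells removed by the Mog limit alone were not among them. Members made up 10.4%, 8.20% and 22.5% of lineage cells in WT cortex and 18.2%, 11.0% and 41.3% in WT hippocampus, and the groups overlapped (difference 9.78 points, two-sided exact permutation p = 0.5; 0.901 points, p = 0.9, without replicate 3 of WT hippocampus). In Grin1-null mice they made up 20.8% and 13.7% in cortex and 15.7% and 15.0% in hippocampus. Grin1-null minus WT was 3.53 points in cortex (exact permutation p = 0.6) and -8.15 points in hippocampus (p = 0.8), and over all libraries the hippocampal excess was 3.94 points (p = 0.55). Hippocampus was higher in 3 of 3 same-numbered WT pairs and in 4 of 5 pairs of both genotypes (two-sided exact test within pairs p = 0.25 and 0.312, smallest p 0.25 and 0.0625, chosen after the data were seen). Replicate 3 of WT hippocampus carried much of this difference: without it, hippocampus minus cortex over all libraries was -0.50 points and Grin1-null minus WT in hippocampus was 0.729 points.

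**Figure D1:**
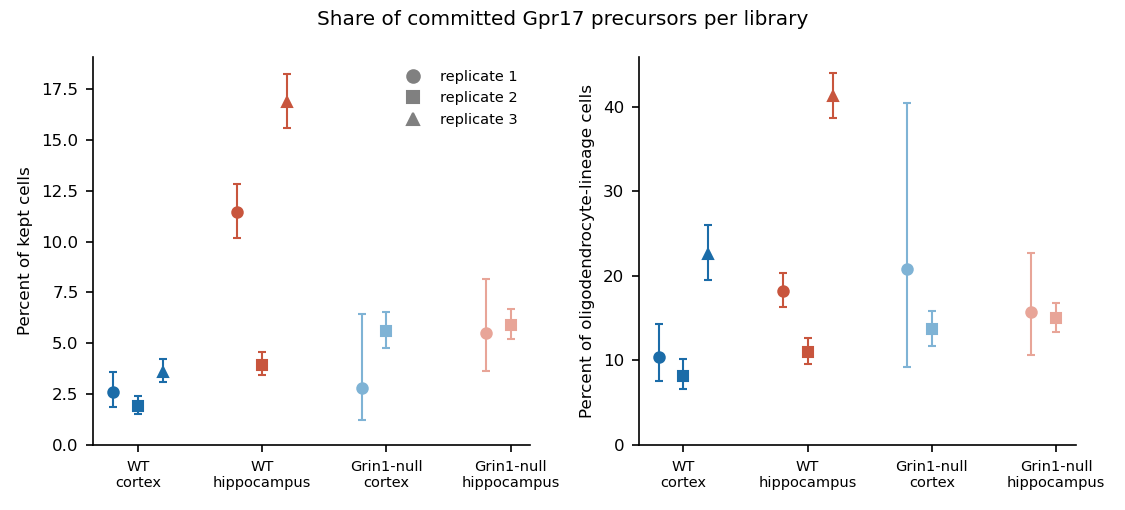
Share of committed Gpr17 precursors among kept cells (left, percent) and among oligodendrocyte-lineage cells (right, percent) in each of 10 libraries, by genotype and region. Points are libraries, shapes are replicates and bars are 95% Wilson intervals; replicates 1 and 3 of WT hippocampus, at 11.4% and 16.9% of kept cells, stand above all other libraries.

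Genes were then compared between members and their lineage neighbours, to show what the committed stage holds that the stages before and after it do not. UMIs were summed per library and class in the 7 libraries with at least 10 cells of resting precursors, members and newly formed oligodendrocytes, and 6392 genes were tested with library as a block (edgeR quasi-likelihood, Benjamini-Hochberg). Calls needed an adjusted p below 0.01 together with a change of 0.1 or more on the natural log scale. The 8 genes that define the classes were left out of every count. Since the classes were defined on counts of the same cells, the calls describe them and do not test the definition. The comparisons with resting precursors, with newly formed oligodendrocytes and with the mean of both share the members' sums, so their values are given side by side and not as independent results.

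Against the mean of both neighbours, 807 genes were higher in members (12.6% of those tested) and 429 were lower (6.71%). The list of committed precursor markers was higher as a whole, with 9 of 9 tested genes called and a median log2 change of 2.12, against 0.06 over all genes. Among genes called and also higher, or lower, than each neighbour in the fit, in every library and at a mean of at least 20 CPM, 176 were higher and 54 were lower. With library size alone the counts were 1051 and 348 and the all-gene median moved to 0.16, and with DESeq2 they were 642 and 544. Of 115 called list genes, 1 lost its call with library size alone and 15 with DESeq2.

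Epcam (ENSMUSG00000045394.8, chr17:87635979-87651129 on the plus strand), an adhesion molecule best known from epithelia, was among the transient rises. Its level was 0 to 4.06 with a median of 0 CPM in resting precursors, 76.5 to 431 with a median of 232 CPM in members and 7.09 to 72.6 with a median of 19.6 CPM in newly formed oligodendrocytes, over 7 libraries. The lowest member sum was above the highest sum of either neighbour. The resting sums held 1 Epcam UMI in all, so the size of the rise from there is poorly known: the ratio of the pooled sums was 134 (95% exact counting interval 24.1 to 5311). Against newly formed oligodendrocytes the log2 change was 3.07 ± 0.21 (SE, adjusted p = 3.4e-13).

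Bmp4 had the same shape. It ranged from 0 to 41.3 with a median of 19.5 CPM in resting precursors, from 204 to 422 with a median of 306 CPM in members and from 18.7 to 67.8 with a median of 33.3 CPM in newly formed oligodendrocytes, with no overlap between members and either neighbour. The log2 change was 3.47 ± 0.22 (SE) against the mean (adjusted p = 2.7e-12), with 4.03 against resting precursors and 2.91 against newly formed oligodendrocytes. The long non-coding RNA 9530059O14Rik also had 1 UMI in the resting sums (ratio 169.8, interval 30.4 to 6709) and was called higher than in newly formed oligodendrocytes. The other named rises against the mean were Gp1bb (3.65 on the log2 scale), Slc27a3, a fatty acid transport protein gene (2.97), Epb4.1l2, a membrane skeleton protein gene (2.96), Chn2, a Rac GTPase-activating protein gene (2.87), Ust, a sulfotransferase gene (2.74), Map1b, a microtubule-associated protein gene (2.67), and Mycl, a MYC-family factor (2.64). Slc27a3 was called against newly formed oligodendrocytes (4.89) and not against resting precursors (1.06).

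Fyn and Bcas1 were transient as well. Fyn ranged from 175 to 453 with a median of 330.5 CPM in resting precursors, from 2681 to 4578 with a median of 2891 CPM in members and from 239 to 2550.3 with a median of 542 CPM in newly formed oligodendrocytes. Its highest newly formed sum stood just under its lowest member sum, so the groups did not overlap. The log2 changes were 3.34 ± 0.28 (SE) against resting precursors (adjusted p = 3.6e-10) and 1.91 ± 0.24 against newly formed oligodendrocytes (adjusted p = 8.3e-08). Bcas1 ranged from 409 to 791 with a median of 586 CPM, from 1319 to 4785 with a median of 3755 CPM and from 463 to 2122 with a median of 779 CPM in the same order, and here members and newly formed oligodendrocytes overlapped. Its log2 changes were 2.63 ± 0.21 (SE) and 1.61 ± 0.18 (adjusted p = 9.3e-11 and 1.3e-08). Of the remaining committed markers, Lims2, Tns3 and Epb4.1l2 were higher than in both neighbours. Neu4, a sialidase gene, and Vcan were called only against newly formed oligodendrocytes (log2 changes 3.09 and 2.70, against 0.88 and -0.48 and not called over resting precursors), whereas Tmem2, a hyaluronidase gene, had 0 UMIs in the resting sums and was at least 44.7-fold higher in members (against 3 counts over all resting sums), with a log2 change of 0.13 and no call against newly formed oligodendrocytes.

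A smaller group of genes dipped at the committed stage. Stmn1, which encodes the microtubule-destabilising protein stathmin, ranged from 64.7 to 471 with a median of 209 CPM in resting precursors, from 39.5 to 121 with a median of 60.7 CPM in members and from 392 to 3105 with a median of 2126 CPM in newly formed oligodendrocytes. Members overlapped with resting precursors and not with newly formed oligodendrocytes. The log2 change was -3.69 ± 0.35 (SE) against the mean (adjusted p = 4.4e-09), -1.96 against resting precursors and -5.42 against newly formed oligodendrocytes. Its relative Stmn4 followed (-3.40), then Gsn, which encodes the actin-severing protein gelsolin (-3.25), Mast4 (-3.20), Rcan2, a calcineurin regulator (-2.96), Inpp5f, an inositol phosphatase gene (-2.95), Ttll7, a tubulin glutamylase gene (-2.89), Ptn, which encodes the growth factor pleiotrophin (-2.70), Hepacam, a glial adhesion molecule (-2.69), and the transcription factor Creb5 (-2.60). Gsn differed from newly formed oligodendrocytes (-5.82) and was not called against resting precursors (-0.67), and the same held for Ttll7 (-4.49 and -1.29).

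**Figure D2:**
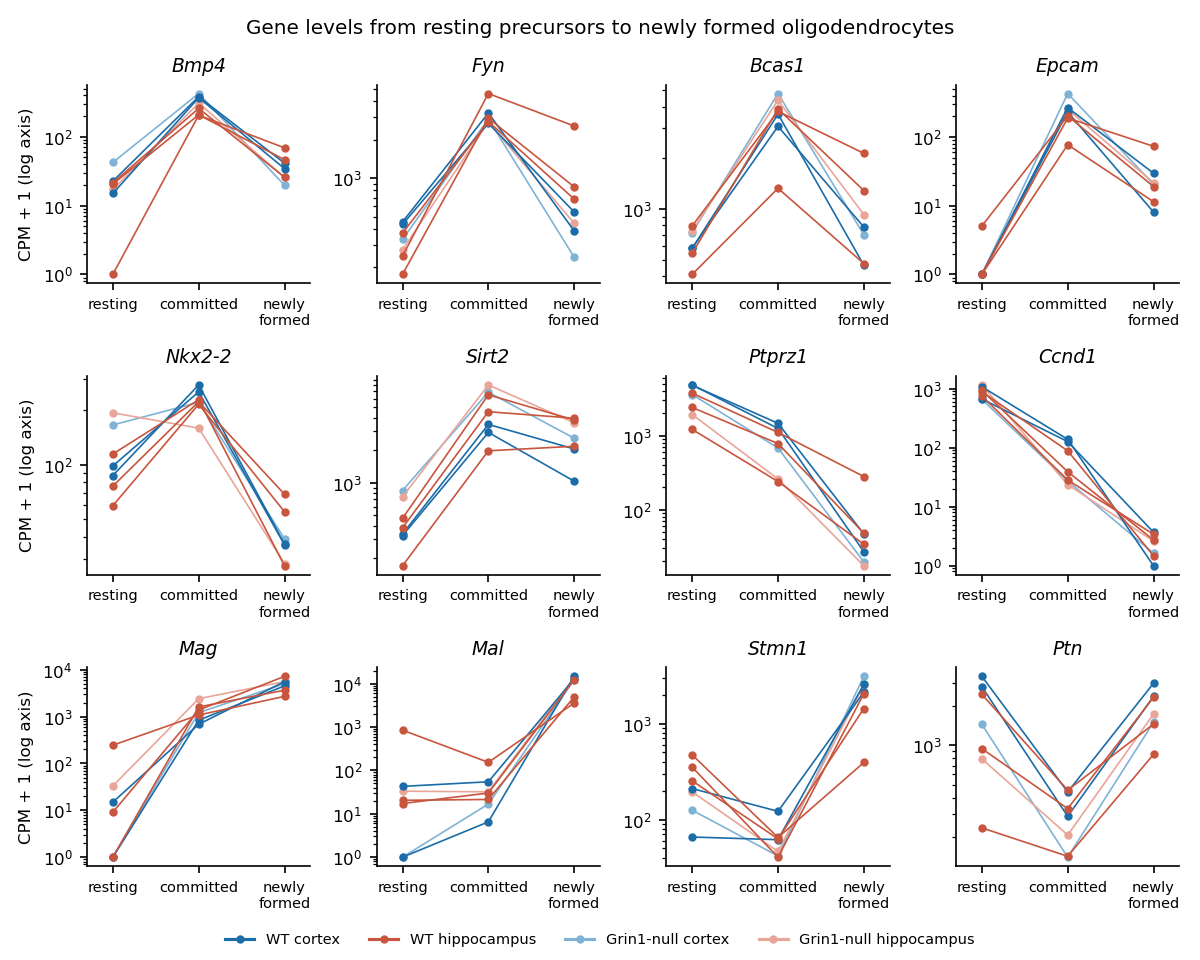
Levels of 12 genes in resting precursors, committed Gpr17 precursors and newly formed oligodendrocytes, as CPM plus 1 on a log axis; each line joins the sums of a library, coloured by genotype and region, for 7 libraries. Bmp4, Fyn, Bcas1, Epcam, Nkx2-2 and Sirt2 peak or reach their plateau in members of most libraries, Ptprz1 and Ccnd1 fall along the series, Mag climbs along it, Mal climbs at its end, and Stmn1 and Ptn dip.

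Against resting precursors, 668 genes were higher in members (10.5% of 6392) and 519 were lower (8.12%). The resting precursor markers were lower, 9 of 10 tested, with a median log2 change of -2.05 against 0.07 over all genes. Cspg4, the NG2 proteoglycan gene, fell from 499 to 44.7 CPM in pooled cells (-3.36 ± 0.23 SE, adjusted p = 4.4e-12), and Ptprz1, a receptor phosphatase gene, from 2926 to 631 CPM (-1.98 ± 0.27). C1ql1, a secreted C1q-like protein gene, fell by less, from 1429 to 427 CPM (-1.77 ± 0.15). Tnr, which encodes tenascin-R, was the marker not called (0.88). With library size alone the counts were 481 higher and 640 lower with an all-gene median of -0.09, and with DESeq2 569 and 603. Of 138 called list genes, 4 lost their call with library size alone and 6 with DESeq2.

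Hes5 and Ccnd1 had the largest falls from resting precursors. Ccnd1, which encodes cyclin D1, ranged from 661 to 1158 with a median of 890.0 CPM in resting precursors and from 22.7 to 138 with a median of 38.2 CPM in members, with no overlap (-3.83 ± 0.25 SE, adjusted p = 2.5e-12). Hes5, a Notch target repressor, ranged from 28.4 to 302 with a median of 132 CPM and from 3.59 to 15.2 with a median of 5.26 CPM (-3.88 ± 0.44). The rest of the top falls were Etv5, a factor downstream of receptor tyrosine kinases (-3.79), Kcnip3, a potassium channel partner (-3.74), the proteoglycan gene Cspg5 (-3.73), AW047730 (-3.65), the adhesion gene Chl1 (-3.61), the hypoxia factor gene Epas1 (-3.60), Pmp22 (-3.51) and Cdo1, a cysteine dioxygenase gene (-3.49).

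Of the 10 largest rises over resting precursors, 8 genes had no UMI in any resting sum, so only lower bounds can be given. Members were at least 44.7-fold higher for Tmem2, 22.0-fold for Ddc, which encodes DOPA decarboxylase, 18.5-fold for RP23-416H10.8, 13.4-fold for the kinase gene Cdk18, 12.8-fold for the kinesin gene Kif19a, 10.8-fold for the integrin gene Itgb7, 8.02-fold for Prom1 (CD133) and 6.80-fold for B3gnt9. The other 2, Epcam and 9530059O14Rik, had 1 UMI each, as given above. The committed marker list as a whole had 7 of 9 genes higher (median 2.64), a median that stays the same with Tmem2 at its bound.

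Against newly formed oligodendrocytes, 1386 genes were higher in members (21.7%) and 1485 were lower (23.2%). Newly formed oligodendrocytes were limited to 1 Pdgfra UMI, and members had no Pdgfra limit. The rules thus favour higher progenitor genes in members, and the part of the limit was not tested. In the summed members, all 10 tested resting markers were higher (median 3.72, against 0.01 over all genes). Of the committed markers, 8 of 9 were higher (median 1.91). Members differed among themselves in progenitor genes, as given below for Cspg4 and Ccnd1. Over 19 alternatives the log2 change of Ccnd1 ran from 1.97 to 5.92, and all of them called it. Its highest adjusted p was in members with an Enpp6 UMI alone. Cacng4, an AMPA receptor auxiliary subunit gene, ranged from 76.5 to 427 with a median of 173 CPM in members and from 2.70 to 8.71 with a median of 4.28 CPM in newly formed oligodendrocytes, with no overlap (4.97 ± 0.27 SE, adjusted p = 3.9e-15). The Notch ligand-like gene Dll3 (4.96), Ccnd1 (4.92), the cell cycle regulator Rgcc (5.16), the receptor-modifying protein gene Ramp1 (5.13), Emid1 (5.06) and the mRNA decay factor Zfp36l1 (5.03) completed the top rises with the retinal binding protein gene Rlbp1 and Tmem255b, which had 2 UMIs each in the newly formed sums (ratios of 117 and 99.6, 95% exact counting intervals 31.7 to 974 and 27.0 to 833), and with Ppapdc1a, a lipid phosphatase gene at least 57.8-fold higher, as its newly formed sums held 0 UMIs. With library size alone the counts were 2659 higher and 854 lower and the all-gene median moved from 0.01 to 0.38, and with DESeq2 they were 1174 and 1626. Of 183 called list genes, 19 lost their call with library size alone and 12 with DESeq2.

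Myelin genes were compared with both neighbours. Members were limited to 1 Mog UMI and newly formed oligodendrocytes had no Mog limit. The rules thus favour lower myelin genes in members than in that class, and the part of the limit was not tested. All 14 tested myelin genes were lower in members than in newly formed oligodendrocytes (median -3.30), and 8 were already higher than in resting precursors (median 2.35). Mbp, the myelin basic protein gene, ranged from 80.4 to 454 with a median of 156 CPM in resting precursors, from 3871 to 24880.2 with a median of 6693 CPM in members and from 6292 to 25678 with a median of 10543 CPM in newly formed oligodendrocytes. Its log2 change was 5.50 ± 0.34 (SE) over resting precursors and -1.03 ± 0.25 against newly formed oligodendrocytes (adjusted p = 8.5e-13 and 8.6e-04). Members and newly formed oligodendrocytes overlapped for Mbp, while resting precursors stood apart.

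Mag, the myelin-associated glycoprotein gene, stood at 29.6, 1589, 5413 and 6858 CPM in resting precursors, members, newly formed and mature oligodendrocytes. It was higher than in resting precursors (5.42 on the log2 scale) and lower than in newly formed oligodendrocytes (-2.32). Late myelin genes were barely present in members, which were chosen for at most 1 Mog UMI. Mal stood at 90.4, 33.2 and 11791 CPM, Opalin at 1.64, 9.18 and 534 CPM, and Aspa, which encodes aspartoacylase, at 4.93, 1.99 and 629 CPM in resting precursors, members and newly formed oligodendrocytes. None of these 3 was called over resting precursors, and Mal had a large fall against newly formed oligodendrocytes (-8.82 ± 0.57 SE, adjusted p = 1.9e-13). The other large falls were Prr5l, with 2 UMIs in members (newly formed over members 519, interval 144 to 4290.4), Ndrg1 (-8.51), Anln, which encodes the septin partner anillin (-8.49), Aspa (-8.23), Gm21984 (-7.75), the carbonic anhydrase gene Car2 (-7.33), the selenium carrier gene Sepp1 (-7.29), the node matrix gene Hapln2 (-7.19) and the apolipoprotein gene Apod (-6.75).

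Cholesterol synthesis, which supplies the main lipid of myelin, had begun to climb. Of 21 tested genes 12 were higher in members than in resting precursors (median 1.39) and 19 were lower than in newly formed oligodendrocytes (median -1.17). Hmgcs1 (ENSMUSG00000093930.1, chr13:119690379-119708260 on the plus strand), an early enzyme of the pathway, ranged from 69.7 to 527 with a median of 173 CPM in resting precursors, from 276 to 1550.2 with a median of 664 CPM in members and from 1659.6 to 2112 with a median of 1827 CPM in newly formed oligodendrocytes. Its log2 changes were 2.16 ± 0.31 (SE) and -1.73 ± 0.24 (adjusted p = 2.3e-06 and 4.1e-07). Fdps, which encodes farnesyl diphosphate synthase, differed by 2.61 and -1.37.

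Lineage transcription factors showed several patterns. Of 21 tested, against resting precursors 6 were higher and 7 lower (median 0.08), and against newly formed oligodendrocytes 12 were higher and 4 lower (median 0.50). Nkx2-2, a repressor needed for timely differentiation, ranged from 58.4 to 193 with a median of 97.6 CPM in resting precursors, from 159 to 276 with a median of 223 CPM in members and from 26.6 to 67.8 with a median of 35.5 CPM in newly formed oligodendrocytes. It was higher than in both neighbours (1.04 ± 0.23 and 2.19 ± 0.16 SE, adjusted p = 7.4e-04 and 2.6e-12), as was Sox4 (1.12 and 1.41). Tcf7l2, a Wnt effector of differentiating oligodendrocytes, stood at 72.3, 472 and 167 CPM in resting precursors, members and newly formed oligodendrocytes and was also higher than in both (3.04 ± 0.35 and 1.08 ± 0.22 SE).

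Other factors differed in their course. Sox5 stood at 135, 50.2 and 1.71 CPM and Sox11 at 199, 57.8 and 5.74 CPM in resting precursors, members and newly formed oligodendrocytes, with each called lower in members than in the first class and higher than in the last. Olig1 was lower than in resting precursors (-1.18) and not called against newly formed oligodendrocytes (-0.27), and Olig2 was lower than in the former (-0.61) and higher than in the latter (1.03). Myrf, the driver of myelin gene transcription, stood at 37.8, 174 and 168 CPM in the same order (2.12 and -0.47 on the log2 scale), Zeb2 was higher than in resting precursors (1.52) and not called against newly formed oligodendrocytes (0.06), and Nkx6-2 stood at 1.64, 60.3 and 604 CPM.

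The FYN signalling and cytoskeleton list was higher than in resting precursors for 11 of 20 tested genes and lower for 1 (median 0.90), while against newly formed oligodendrocytes 7 were higher and 7 lower (median -0.03). Higher than in both neighbours, beside Fyn, were Arhgap35, which encodes the p190 RhoGAP that FYN phosphorylates (1.05 and 1.49), Wasf1, an activator of actin branching (1.38 and 1.44), and Dynll2, a dynein light chain gene (3.24 and 1.17). Sirt2, a tubulin deacetylase gene, stood at 472, 5765 and 3051 CPM in resting precursors, members and newly formed oligodendrocytes and was called over resting precursors alone (3.54 ± 0.22 SE, adjusted p = 8.5e-13). Tubb4a and Tppp, a tubulin and a microtubule-polymerising protein gene, were higher than in resting precursors (3.66 and 3.65) and lower than in newly formed oligodendrocytes (-0.69 and -1.56). Cntn1, an axon-glial adhesion partner of FYN signalling, was the gene lower than in resting precursors (-1.46).

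Signalling lists were sparse, and their counts stand beside 10.5% higher and 8.12% lower among all genes tested against resting precursors, and 21.7% and 23.2% against newly formed oligodendrocytes. Of 6 tested BMP pathway genes 2 were higher than in resting precursors, Bmp4 and the inhibitory Smad7 (2.39), and Smad7 was lower than in newly formed oligodendrocytes (-1.74) with Bmp4 and Smad1 (0.63) higher. In the Wnt list 1 of 7 was higher and 1 lower than in resting precursors, Tcf7l2 and Nkd1, a Wnt antagonist gene. Nkd1 was lowest in members, at 19.1 CPM, a dip called on both sides (-1.83 and -2.62). Against newly formed oligodendrocytes 2 Wnt genes were higher and 2 lower. In the Notch list 2 of 5 were lower than in resting precursors, Hes5 and Dll3 (-2.41), and 3 were higher than in newly formed oligodendrocytes.

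The list of GPR17 and cAMP signalling genes, which holds the G proteins, adenylyl cyclases and phosphodiesterases that could act beside the receptor, had 0 of 13 tested genes called against resting precursors by edgeR and 0 by DESeq2 (median -0.03). Against newly formed oligodendrocytes 2 were higher and 5 lower. Gnai1, an inhibitory G protein subunit gene, stood at 100.2, 79.8 and 340.1 CPM in resting precursors, members and newly formed oligodendrocytes, and its fall against the last of these was -2.43 ± 0.17 (SE, adjusted p = 4.5e-13). Pde4d, a cAMP phosphodiesterase gene, was higher (1.76) and Pde4b lower (-1.26).

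Receptors for glutamate and growth factors did not move together. Of 10 tested glutamate receptor genes 4 were lower than in resting precursors (median -0.43) and 8 were higher than in newly formed oligodendrocytes (median 1.71). Gria2, an AMPA receptor subunit gene, stood at 687, 490.1 and 72.8 CPM and was not called against resting precursors (-0.19), while Gria3 at 242, 69.6 and 6.08 CPM and Grin3a, an NMDA receptor subunit gene, at 136, 34.7 and 1.97 CPM were already lower (-1.51 and -1.79). Among 8 growth factor receptor genes 3 were higher and 1 lower than in resting precursors, and 1 was higher and 4 lower than in newly formed oligodendrocytes. The lysophosphatidic acid receptor gene Lpar1 rose from 6.57 to 190.0 CPM in pooled cells (4.58), and the neurotrophin receptor gene Ntrk2 fell from 271 to 83.2 CPM (-1.61).

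Of 13 tested proteoglycan and matrix genes, 8 were lower, 1 was higher and 4 were not called against resting precursors (median -1.98), and all 13 were higher than in newly formed oligodendrocytes (median 2.70). Cspg5, which encodes neuroglycan C, ranged from 941 to 3759 with a median of 2459 CPM in resting precursors, from 36.6 to 445 with a median of 198 CPM in members and from 7.26 to 26.1 with a median of 14.3 CPM in newly formed oligodendrocytes, and these ranges did not overlap. The gene higher than in resting precursors was Col9a3, a collagen gene that was higher than in both neighbours (1.55 and 1.35). Vcan and Bcan, the versican and brevican genes, stood at 369 and 708 CPM, with no call against resting precursors (-0.48 and -0.39).

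Markers of newly formed oligodendrocytes were already present. All 6 tested were higher than in resting precursors (median 2.81) and 3 were higher than in newly formed oligodendrocytes themselves: Itpr2, an inositol trisphosphate receptor gene (1.71), Tcf7l2 (1.08) and Mpzl1 (1.16). Of 6 tested cell cycle exit genes, only Ccnd1 was called against resting precursors, while Cdkn1c, Rb1 and Rbl2 were lower than in newly formed oligodendrocytes and Ccnd1 higher. Of the cell cycle list 1 gene was tested and 0 were called by edgeR, in cells chosen for an absence of Top2a and Mki67.

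Genes that respond to dissociation and markers of other cells were read alongside, in cells prepared with the activity blockers and actinomycin-D. Of 8 tested dissociation genes 4 were lower than in resting precursors and 5 lower than in newly formed oligodendrocytes (medians -1.38 and -1.05). Fos stood at 182, 25.5 and 84.4 CPM and Jund at 547, 216 and 617 CPM in resting precursors, members and newly formed oligodendrocytes, and the part of dissociation in the class differences was not tested. The 14 neuron markers summed to 230 CPM in members, 472 in resting precursors and 156 in newly formed oligodendrocytes, with Sst the most abundant in members at 55.7 CPM. In the fits, 2 of 6 neuron markers were lower than in resting precursors and 1 was higher than in newly formed oligodendrocytes. The 10 astrocyte markers summed to 98.5, 427 and 78.0 CPM, with 2 of 3 tested lower than in resting precursors and 1 lower than in newly formed oligodendrocytes. Microglia markers summed to 15.9 CPM in members, and 0 of the microglia or vascular and choroid plexus markers had enough counts to be tested between classes. Vascular and choroid plexus markers summed to 179 CPM in members and 6008 CPM in resting precursors, nearly all of it Ttr (166 and 5951 CPM), and 3589 of the 3622 Ttr UMIs in resting precursors of WT hippocampus replicate 3 came from 4 cells.

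Members were not uniform. By UMIs of 2 genes that the member rule did not use, 186 members (11.5%) held Pdgfra without Enpp6, 441 (27.2%) held neither, 983 (60.5%) held Enpp6 without Pdgfra and 14 (0.862%) held both. Their median depths were 2096, 2312 and 4488 UMIs for the first 3 groups, so depth moves with the split and its part was not tested. The groups are defined on counts of the same cells and are given as pooled levels with no test.

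Across Pdgfra-only, double-negative and Enpp6-only members, precursor genes stepped down. Cspg4 stood at 429.7, 54.6 and 6.80 CPM, Ptprz1 at 2745, 989 and 353 CPM, C1ql1 at 1773, 693 and 238 CPM and Ccnd1 at 607, 68.2 and 6.60 CPM. Each of these was lower in Enpp6-bearing members than in the other members in all 8 libraries compared. Committed markers came on between the Pdgfra-only and the double-negative members: Bmp4 stood at 42.7, 258 and 320.2 CPM, Bcas1 at 889, 3217 and 4004 CPM, Fyn at 475, 3029 and 3061 CPM and Epb4.1l2 at 40.5, 622 and 772 CPM. Myelin and lipid genes went on climbing, with Mbp at 281, 3529 and 13041 CPM and Hmgcs1 at 146, 370.2 and 1048 CPM, and each of these 6 was higher in Enpp6-bearing members in 8 of 8 libraries. Gpr17 itself, a rule gene, was highest in the middle group (1199, 1584 and 923 CPM).

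The share of Enpp6-bearing members was also read from thinned counts, although the members themselves were chosen on unthinned counts. After thinning to 1000 UMIs, an Enpp6 UMI was found in 36.4%, 26.6% and 38.5% of members of WT cortex, 28.0%, 31.2% and 31.4% of WT hippocampus, 39.4% of replicate 2 of Grin1-null cortex, and 36.4% and 41.7% of Grin1-null hippocampus. The regions overlapped within WT, and in the hippocampus both Grin1-null libraries were above the 3 WT libraries. Replicate 1 of Grin1-null hippocampus rested on 8 of 22 members. In replicate 2 of WT hippocampus 44 members were too shallow to be thinned and were left out. The part of depth in the choice of members was not tested here.

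Gene levels of members were compared between hippocampus and cortex of WT mice over libraries, a comparison that the rule does not fix. In a model of all 9 libraries with at least 10 members, 1 of 7460 genes passed, Kcna1, lower in hippocampus (0.0134% of genes, edgeR quasi-likelihood), 289 had an unadjusted p under 0.05, and DESeq2 called 4. Kcna1 (ENSMUSG00000047976.3, chr6:126640397-126646384 on the minus strand) encodes the Kv1.1 potassium channel. It stood at 234, 198 and 166 CPM in WT cortex and 17.8, 9.14 and 23.7 CPM in WT hippocampus, so every cortical library was at least several times above every hippocampal one. The log2 change was -3.28 ± 0.41 (SE, n = 3 and 3, adjusted p = 0.00131, edgeR).

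The Grin1-null libraries, which were not part of that contrast, showed the same order for Kcna1, with 88.1 CPM in replicate 2 of cortex and 17.1 and 17.4 CPM in hippocampus. Without replicate 3 of WT hippocampus Kcna1 was not called (log2 change -3.50, adjusted p = 0.019), and neither was it in a fit of the 6 WT libraries alone (-3.29, adjusted p = 0.0122), against a range of 8.0e-12 to 0.019 over 22 alternatives. Interneuron-like cells held Kcna1 at 198 CPM in WT cortex and 166 CPM in WT hippocampus, and members 184 and 20.9 CPM when pooled. Sst, the most abundant neuron marker in members, stood at 10241.6 and 6140.0 CPM in those interneuron-like cells and at 138 and 30.2 CPM in members.

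With replicate as a block, 27 genes passed, 13 higher (0.174%) and 14 lower (0.188%) in hippocampal members. Of the cholesterol synthesis list 6 of 22 genes passed, all higher, among them Hmgcs1, Lss, Idi1, Fdps and Cyp51. Of all 7460 genes tested, 714 (9.57%) did not overlap between WT regions. Hmgcs1 stood at 117, 436 and 276 CPM in WT cortex and 1550.2, 1241 and 664 CPM in WT hippocampus, with no overlap. Its log2 change was 2.06 ± 0.33 (SE, adjusted p = 1.2e-06) with the block and 2.16 ± 0.45 (adjusted p = 0.134, not called) without it, against a range of 1.2e-06 to 0.927 over 22 alternatives. Idi1, an isoprenoid isomerase gene, stood at 90.9, 215 and 107 CPM in cortex and 464, 485 and 272 CPM in hippocampus, and Fdps at 77.9, 347 and 217 and 718, 384 and 552 CPM, again with no overlap, as for 9.57% of all genes tested.

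The cholesterol list leaned to hippocampus as a group. All 22 genes had a positive log2 change, with a median of 1.45 against 0.01 over all genes, though 0 of them passed without the block (edgeR; DESeq2 called 1). Their summed level was 1377, 2751 and 1838 CPM in WT cortex and 6639, 5279.6 and 3764 CPM in WT hippocampus. In Grin1-null mice the sum was 2907 CPM in replicate 2 of cortex and 4519.8 and 5336 CPM in hippocampus, and 21 of 22 genes were higher in hippocampus within replicate 2. The lowest hippocampal sum of either genotype was thus above the highest cortical one among libraries with at least 10 members. All 22 changes stayed positive with DESeq2, with library size alone (which moved the all-gene median to -0.13), in members with an Enpp6 UMI alone (median 1.46, chosen after the data were seen) and without replicate 3 of WT hippocampus (median 1.67).

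Myelin genes pointed the same way with more spread. All 12 tested had a positive log2 change (median 1.13), 0 passed without the block and 1 with it: Mobp, a myelin-associated basic protein gene, at 364, 281 and 67.1 CPM in WT cortex and 2499, 454 and 549.8 CPM in WT hippocampus (2.36 ± 0.34 SE, adjusted p = 3.0e-08 with the block). Over 22 alternatives the log2 change of Mobp ran from 1.34 to 5.17, and 4 of these called it. Its adjusted p ran up to 0.9998, without replicate 1 of WT hippocampus. The list's sums overlapped between regions, at 31369, 17175 and 18943 CPM in cortex and 62277, 19622 and 26162 CPM in hippocampus. Resting precursor markers leaned to cortex, with a median of -0.83 over 10 genes, sums of 4312, 4218 and 4731 CPM in cortex and 2262, 3459.8 and 3146 CPM in hippocampus, and 2 genes passing with the block, Cacng4 (-1.63 ± 0.32 SE) and Emid1 (-2.42 ± 0.43 SE). In members with an Enpp6 UMI alone that median was -0.16, whereas the cholesterol and myelin medians stayed at 1.46 and 1.01.

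Neuron markers also differed by region and are given beside these results. The 7 tested all had a negative log2 change (median -1.17) and 2 passed with the block, Sst and Npy. The whole list of 14 summed to 364, 248 and 687 CPM in WT cortex and 99.4, 198 and 167 CPM in WT hippocampus, with Sst the most abundant in all 3 cortical libraries. Rbfox3 was at 0 in every WT cortical library and in replicates 1 and 2 of WT hippocampus. The dissociation list had a median of -0.65 with 2 of 8 positive and 1 gene lower with the block, and its sums overlapped between regions. The astrocyte list had a median of -1.12 with 1 of 3 positive. The part of neuronal RNA, other cells and dissociation in the regional differences was not tested. Kcna1 was called with the block as well. The remaining genes called with it, outside the named-gene rule and chosen after their values were seen, were Sh3gl3, Fam107b, Fhl2, Ninj1, Gm15440 and Ttr among those higher and Dct, Ptgds, Egr1, Sparcl1, Pcp4, Lbh, Cspg5, Rgcc and Cldn5 among those lower. Of the Ttr UMIs in members, 919 of 1084 came from a single cell of WT hippocampus replicate 3, and 50 of 51 Cldn5 UMIs came from a single cell of WT cortex replicate 3.

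**Figure D3:**
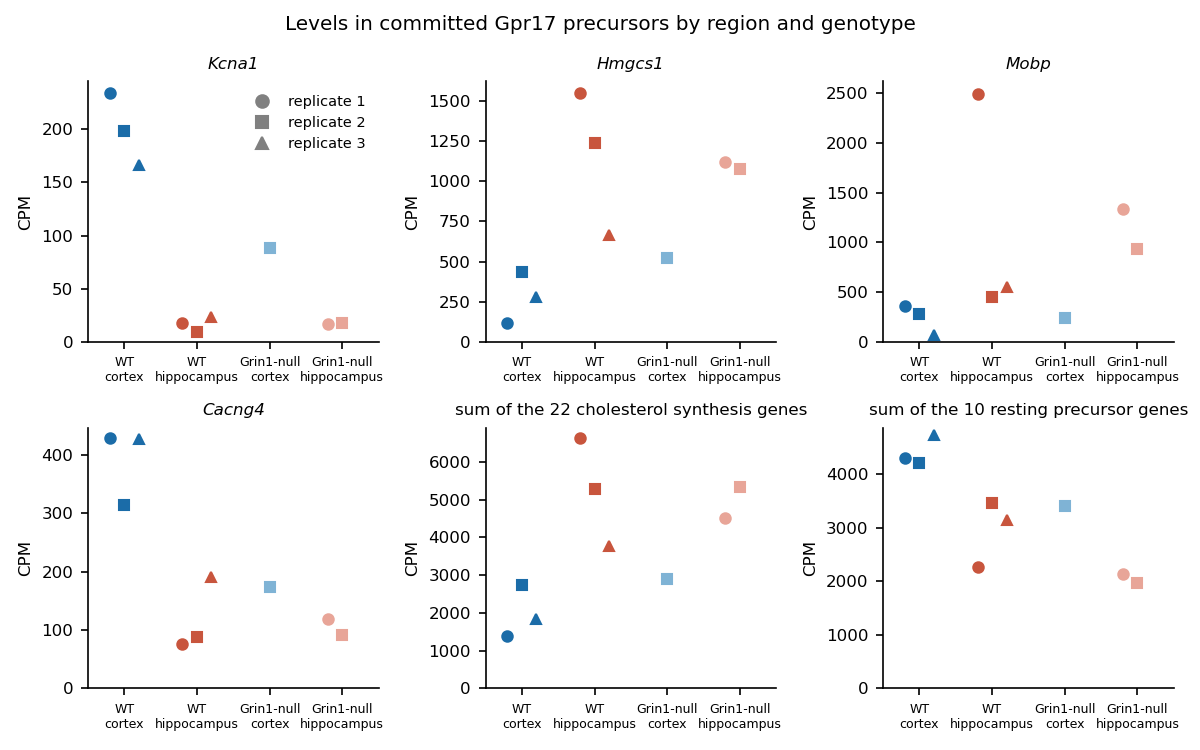
Levels in committed Gpr17 precursors of each library with at least 10 members, in CPM, for Kcna1, Hmgcs1, Mobp, Cacng4 and for the summed cholesterol synthesis and resting precursor lists. Points are libraries and shapes are replicates; Kcna1 is higher in each cortical library than in any hippocampal library, and the cholesterol sums are lower.

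Grin1-null members were compared with WT members to ask whether loss of the NMDA receptor subunit in the lineage moved their genes. Grin1 itself was scarce. Members held 0, 3 and 8 Grin1 UMIs in WT cortex, 1, 4 and 13 in WT hippocampus, 0 and 2 in Grin1-null cortex, and 0 and 3 in Grin1-null hippocampus. Pooled, that was 29 UMIs in 1213 WT members (7.29 CPM, 95% Poisson interval 4.88 to 10.5) and 5 in 411 Grin1-null members (1.95 CPM, 0.634 to 4.56). These intervals cover counting error only. By library the genotypes overlapped, at 0 to 21.5 CPM in WT and 0 to 2.63 CPM in Grin1-null members. Grin1 was too scarce for the gene comparison, the position of the 3′ reads relative to the deleted part is not given in the deposited data, and WT resting precursors held more (41.5 CPM).

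In hippocampus, with 3 WT and 2 Grin1-null libraries, 0 of 7460 genes passed in edgeR, 0 passed in DESeq2, and 179 had an unadjusted p under 0.05. Of 9 committed markers 0 were called and 2 had a positive log2 change (median -0.10). Bmp4 stood at 207, 204 and 257 CPM in WT and 103 and 306 CPM in Grin1-null hippocampus (log2 change -0.08 ± 0.42 SE), Bcas1 at 1319, 3755 and 3879 and 1427 and 4367 CPM (-0.10 ± 0.57), and Fyn at 2935, 4578 and 2765 and 2392 and 2737 CPM (-0.49 ± 0.41). The genotypes overlapped for Bmp4 and Bcas1, and for Fyn both Grin1-null libraries were below the WT ones, while 18.7% of all genes tested had no overlap. No list had a gene called by edgeR without the block. The cholesterol median was -0.14 and the myelin median 0.40, against -0.06 over all genes. Resting precursor markers had a median of -0.78 with 1 of 10 positive, and their sums of 2136 and 1977 CPM in Grin1-null hippocampus were below all 3 WT hippocampal sums. Proteoglycan and glutamate receptor medians were -0.64 with 3 of 14 positive and -0.52 with 1 of 11 positive. The dissociation list had a median of 2.03 with 7 of 8 positive, but its sums overlapped, at 306, 826 and 285 CPM in WT and 299 and 1081 CPM in Grin1-null hippocampus. With replicate as a block the last 4 medians were -0.36 for resting precursor markers, -0.23 for proteoglycans, -0.50 for glutamate receptors and 0.66 for the dissociation list, so all but that of glutamate receptors moved well toward 0. Neuron markers summed to 214 and 257 CPM in Grin1-null hippocampus, above the WT hippocampal sums of 99.4, 198 and 167 CPM, with Pvalb and Sst the most abundant in replicates 1 and 2 and Rbfox3 at 0 in replicate 1. Of 7 tested, 5 had a positive log2 change (median 0.52, or 0.96 with the block), and their part in the genotype differences was not tested.

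With replicate as a block 16 genes passed, 6 higher (0.0804%) and 10 lower (0.134%) in Grin1-null members, named here after their values were seen. Among those higher were Taldo1, which encodes transaldolase, Ctsl, Rbm3, an RNA-binding protein gene induced by cold, Adh5 and Gsto1. Of all 7460 genes tested, 1393 (18.7%) did not overlap between genotypes in hippocampus. Taldo1 stood at 595, 378 and 745 CPM in WT and 1692 and 1693 CPM in Grin1-null hippocampus, and Rbm3 at 235, 213 and 474 and 965 and 928 CPM, with no overlap (1.57 ± 0.36 and 1.82 ± 0.36 SE, adjusted p = 0.00629 and 5.4e-04 with the block). Over 22 alternatives their adjusted p ran up to 1, while their log2 changes stayed at 1.32 to 1.66 and 1.40 to 1.95. Of the 233 Gsto1 UMIs in members of Grin1-null hippocampus replicate 1, 122 came from a single cell. The genes lower were Xist, Mir6236, 1700047I17Rik2, AY036118, Gm26917, Lars2, Nmt1, Trim44, Myef2 and Cdv3. Of these, 1700047I17Rik2 and Gm26917 turned direction in some alternative, with log2 changes from -7.80 to 0.54 and from -4.47 to 0.62.

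Xist, the transcript of the inactive X chromosome, marked how the libraries differed in the sex of their pooled animals. It stood at 1909, 0 and 274 CPM in WT cortex and 1870.2, 0 and 1002 CPM in WT hippocampus, while both Grin1-null hippocampal libraries and replicate 2 of Grin1-null cortex were at 0. Replicate 1 of Grin1-null cortex held 4 Xist UMIs. Replicate 2 of both WT regions was also at 0, so Xist differed between genotypes in replicate 1 and was absent from both hippocampal libraries of replicate 2. With WT replicate 3 also holding Xist, female content, depth and genotype cannot be fully told apart in the hippocampal comparison. In cortex a single Grin1-null library held at least 10 members, so its values carry no test. There Bmp4 stood at 422 CPM, within the WT cortical values of 572, 380.4 and 368 CPM. Taldo1 at 946 CPM and Rbm3 at 991 CPM were above the WT values of 766, 397 and 378 CPM and 286, 447 and 394 CPM, whereas Kcna1 at 88.1 CPM was below all WT cortical libraries.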

How the data were processed

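The deposited UMI counts were made by the authors with Cell Ranger (2.1.1 in the processing notes, 3.0.2 in the matrix header) and were used as raw counts of 43348 genes. Barcodes were assigned to 10 libraries by their suffix, and suffixes to replicates by matching the number of barcodes to the cell numbers in the study methods. Members and gene lists were chosen with earlier results of these data known. Cells were kept and classed by the UMI limits given in the report, and CPM were computed from summed UMIs. Sums of at least 10 cells per library were filtered by filterByExpr, scaled by TMM and compared by quasi-likelihood tests with Benjamini-Hochberg adjustment in edgeR 4.0.16, run in R 4.3.3 with limma 3.58.1, and with DESeq2 1.42.0 as an alternative. The code was first tested on simulated counts. Shares were compared by two-sided exact permutation over libraries. Other steps used Python 3.11.15, numpy 2.4.6, scipy 1.17.1, pandas 2.3.3, scanpy 1.11.5 and matplotlib 3.10.9.

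Named genes were the called genes with the largest changes, at a mean of at least 20 CPM and with the same direction in every library, 10 on each side for classes and 5 for region and genotype, beside list genes and the exceptions named as chosen after their values were seen. Scrublet marked 289 cells as doublets, 8 of them members, and these were removed in an alternative. Replicate numbers were taken as pairing libraries, because deviations of same-numbered WT cortex and hippocampus libraries from their group means correlated at 0.470, 0.456 and 0.168 (Pearson r, 5231 genes). Differently numbered libraries correlated at -0.426 to 0.19, so the highest of these was above the lowest same-numbered value. Alternatives were other Gpr17 limits, thinning, a stricter cell filter, doublet removal, other scalings, DESeq2, no count filter, larger sums, only the groups compared, the replicate block and each library left out. Members with an Enpp6 UMI alone were added after the data were seen. Some genes of the lists are not reported here.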

Additional observations from a re-analysis of the deposited data

How the results depend on the processing

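Share differences depended on the setting. Over all libraries, the hippocampal excess in percent of kept cells was 4.78 and no longer passed 0.05 with at least 4 Gpr17 UMIs (2.27), after thinning to 1000 UMIs (4.67) or 2000 UMIs (2.49), with a stricter filter (4.92, a larger difference) and with the replicate block as an exact test within pairs (4.78, p = 0.0625, the smallest possible), and ran from 3.25 to 6.48 with each library left out. In percent of lineage cells it was reversed after thinning to 2000 UMIs (-0.371) and without replicate 3 of WT hippocampus (-0.499), in a leave-one-out range of -0.499 to 7.07. Grin1-null minus WT in cortex was reversed with at least 1 Gpr17 UMI (-0.357), after thinning to 1000 UMIs (-1.57) and without replicate 1 of Grin1-null cortex (-0.0551), in a leave-one-out range of -0.0551 to 7.94. In hippocampus it was reversed without replicate 3 of WT hippocampus and with the exact test within pairs (0.729 in both), in a range of -14.4 to 0.729. The WT regional difference in percent of lineage cells was 9.78 and ran from 0.901 to 16.0 with each library left out. In percent of kept cells, with each library left out, the hippocampal genotype difference ran from -8.46 to -1.9995 and the WT regional difference from 5.001 to 11.5. Over the other planned settings the first ran from -8.56 with at least 1 Gpr17 UMI to -2.44 with at least 4, and the second from 4.14 with at least 4 (two-sided exact permutation p = 0.4) to 11.6 with at least 1. The pair tests were chosen after the data were seen.

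Counts of called genes moved as well. For region, the 1 gene became 4 with DESeq2, 22 with no filter on low counts, 27 with the replicate block, 0 with only the groups compared, 9 with at least 4 Gpr17 UMIs, 12 in members with an Enpp6 UMI with the replicate block, and 0 to 3 with each library left out. For genotype in hippocampus, 0 became 11 with no filter, 16 with the replicate block, 3 with at least 4 Gpr17 UMIs, 12 in members with an Enpp6 UMI with the replicate block, and 0 with each library left out. The Enpp6 settings were chosen after the data were seen. Against resting precursors 1187 genes became 2024 with no filter and 725 with at least 1 Gpr17 UMI, and ran from 911 to 1291 with each library left out. Against newly formed oligodendrocytes 2871 became 1794 with no replicate block, in a range of 2460.0 to 3308. Against the mean of both, 1236 became 648 with no replicate block and 705 with sums of at least 20 cells, in a range of 912 to 1399, and only the groups compared gave no value. Kcna1, Prom1, Pmp22 and Itgb7 lost their call in some settings, and none of the genes named by the rule reversed. 1700047I17Rik2 and Gm26917, called for genotype with the replicate block, turned direction in others. The cause of these shifts was not tested.

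The members were chosen by counts of a few genes, so their number follows depth, and the sorted lineage gives no share of all precursors in the tissue. Animals were pooled, sex content differed between libraries, and chemistry moved with replicate number. With 2 or 3 libraries per group small differences could not be seen.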

Other observations

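The TdTomato reporter transcript was present in the members of every library, at 507, 458 and 572 CPM in WT cortex, 386, 533 and 692 CPM in WT hippocampus, 518 and 979 CPM in Grin1-null cortex and 658 and 1077 CPM in Grin1-null hippocampus. Microglia markers summed to 204 CPM in members of WT cortex replicate 2, against 15.9 CPM over all members.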
